A study of Mus musculus with 6 samples.

Results

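The expression of 41 genes of cholesterol and fatty acid metabolism was compared between liver and spleen regulatory T cells (Treg). Members were taken by gene symbol from a named list, and all 41 were present among the 38854 genes of the array table that carried a single symbol. They comprised 14 enzymes of sterol synthesis, 5 genes of SREBP control, 9 enzymes of fatty acid synthesis and desaturation, 2 genes of fatty acid uptake and binding, 7 enzymes of fatty acid oxidation and 4 genes of cholesterol efflux and LXR signalling. The study hybridised RNA to 6 Affymetrix arrays, 3 of liver Treg (arrays 2, 3 and 7) and 3 of spleen Treg (arrays 4, 5 and 6). All samples came from mice of the Foxp3-GFP genotype, in which a fluorescent reporter marks the Treg transcription factor Foxp3, and all had been given IL-2/IL-2Ab complex, an interleukin-2 and antibody complex that expands Treg, on 3 days with a pause of 3 days before isolation. There was no untreated group, the ages of the animals were not given, and no sample carried a disease label, so the values describe expanded Treg only. The labels name both FACS and MACS as the isolation and do not say whether each array was a separate animal, so the p-values given here describe array-to-array spread and part of it could be technical.

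Cells make cholesterol from acetyl-CoA through the mevalonate pathway. When sterols in the endoplasmic reticulum fall, the escort protein SCAP carries the precursors of the SREBP transcription factors to the Golgi, where they are cleaved and released to the nucleus, and INSIG proteins hold this complex back when sterols are plentiful. SREBP2 mainly drives sterol synthesis genes and SREBP1 mainly fatty acid synthesis genes, while the LXR nuclear receptors respond to oxysterols and induce the exporters ABCA1 and ABCG1. In T cells, growth and division draw on lipid synthesis, the mevalonate pathway is needed for Treg function in mice, and Treg are known for their use of fatty acid oxidation.

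The promoter windows of the members were examined for the sterol response element core, through which SREBP acts. CCAAT and GC boxes, which many windows of other genes also hold, were searched as well. RefSeq windows (assembly GRCm38.p6, 250 bases before to 50 bases after each annotated start) were matched by symbol for 33 of the 41 members, with 42 windows in all. Those not matched were Fdps, Fdft1, Sqle, Scd1, Scd2, Fads1, Fabp5 and Abcg1. Each window was searched on both strands for the sterol response element core TCACNCCAC, the CCAAT box and the GC box GGGCGG. The sterol core was found in 1 of the 42 windows, that of Hmgcs1, against 1.24% of all 32851 windows in the table. A CCAAT box was found in 10 of 14 windows of sterol synthesis genes, 5 of 10 of SREBP control genes, 3 of 6 of fatty acid synthesis genes, 1 of 7 of oxidation genes and 0 of 4 of efflux and LXR genes, against 37.4% of all windows. A GC box was found in 11 of 14 windows of sterol synthesis genes and 8 of 10 of SREBP control genes, and in 5 of 7 of oxidation genes, 2 of 6 of fatty acid synthesis genes and 1 of 4 of efflux and LXR genes, against 35.7% of all windows. These matches are descriptions of the letters and not of binding, and no match says only that the letters are not in the window. The Hmgcs1 window is shown because it was the one that held the sterol core. Those of Insig1 and Insig2, the SREBP-restraining pair whose differences between the tissues had opposite signs, were added after the expression values were seen. Capitals mark the sterol core and the CCAAT boxes on either strand, the latter reading ATTGG on the reverse one.
Hmgcs1, chr13:119690101-119690400, plus strand: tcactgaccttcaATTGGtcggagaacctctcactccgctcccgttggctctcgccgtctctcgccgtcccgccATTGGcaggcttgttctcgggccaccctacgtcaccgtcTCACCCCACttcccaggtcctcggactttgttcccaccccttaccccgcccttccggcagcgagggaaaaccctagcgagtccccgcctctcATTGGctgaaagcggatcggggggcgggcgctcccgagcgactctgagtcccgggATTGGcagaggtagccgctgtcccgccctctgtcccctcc
Insig1, chr5:28071162-28071461, plus strand: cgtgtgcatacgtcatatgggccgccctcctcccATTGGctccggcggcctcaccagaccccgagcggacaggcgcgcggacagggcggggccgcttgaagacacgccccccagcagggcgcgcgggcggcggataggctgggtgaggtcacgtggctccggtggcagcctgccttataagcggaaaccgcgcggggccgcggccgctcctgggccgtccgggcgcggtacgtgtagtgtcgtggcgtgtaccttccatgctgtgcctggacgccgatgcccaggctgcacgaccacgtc
Insig2, chr1:121332540-121332839, minus strand, 1 of 3 windows of the gene: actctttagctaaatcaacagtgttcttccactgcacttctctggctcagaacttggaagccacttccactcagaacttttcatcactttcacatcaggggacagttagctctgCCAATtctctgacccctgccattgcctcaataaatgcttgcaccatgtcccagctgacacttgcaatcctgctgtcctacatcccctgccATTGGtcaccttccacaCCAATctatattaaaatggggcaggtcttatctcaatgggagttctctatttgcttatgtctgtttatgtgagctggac
In Hmgcs1 the sterol core TCACCCCAC lay at bases 114 to 122 of the window, 129 bases before the start, and 4 CCAAT boxes lay around it, none overlapping it. Insig1 held a single CCAAT box, at bases 35 to 39, and the Insig2 window held 3. That Insig2 window was chosen because it was the only window of the gene with a CCAAT box.

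Values are log2 signals after RMA, with a precision limited by the 3 arrays per tissue. The array medians over all rows lay between 5.68 and 5.9, and the means of 23 background rows between 4.09 and 4.55. Both were highest on spleen array 5. Foxp3 differed by -0.02 between liver and spleen and the interleukin-2 receptor chain Il2ra by 0.03 (log2 differences), and both markers of the labelled cell type were well above the background rows on all arrays. The arrays also split across the tissues. Liver arrays 2 and 3 and spleen array 6 had Habp2 signals of 8.19 to 8.44 and Ctse signals of 8.67 to 8.76, whereas liver array 7 and spleen arrays 4 and 5 had Habp2 signals of 5.51 to 5.73 and Ctse signals of 11.12 to 11.30. The labels give no batch for this split. Some of the results that depend on it are given below with and without the arrays concerned. In bulk samples, a lower signal from fewer cells of a type cannot be told apart from less RNA per cell.

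No difference between liver and spleen Treg was called in any of the 41 genes. No member passed limma at an adjusted p of 0.05 over all genes tested (0 of 41, smallest adjusted p = 1), where 0.0206% of all genes passed. None passed at an unadjusted p of 0.05 either, where 2.09% of all genes passed as higher in liver and 1.68% as lower. The differences (liver minus spleen, log2) ran from -0.16 for Insig1 to 0.23 for Fdps, Insig2 and Scd1. Their median was 0.06, against -0.02 over all genes, with 26 members higher and 15 lower in liver. In 28 of 41 members the difference was smaller than 0.1, which is 1.07-fold, as it was in 66.1% of all genes. The 95% confidence interval lay within 0.5 log2 units of 0, or 1.41-fold, in 38 of 41 members (92.7%), near the share of all genes (88.4%). The members beyond 0.5 were Fdps, Scd1 and Fabp5, whose upper bounds were 0.62, 0.52 and, just past the limit, 0.50. It lay within 0.25 log2 units, or 1.19-fold, in 0 of 41 members and in 1208 of all 38854 genes. With a median SE of 0.12 over all genes, few genes could have so narrow an interval. All liver arrays lay above all spleen arrays in 1 member, Insig2, and below them in 0, against 3.11% of all genes with all liver arrays above and 3.09% with all below.

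**Figure D1:**
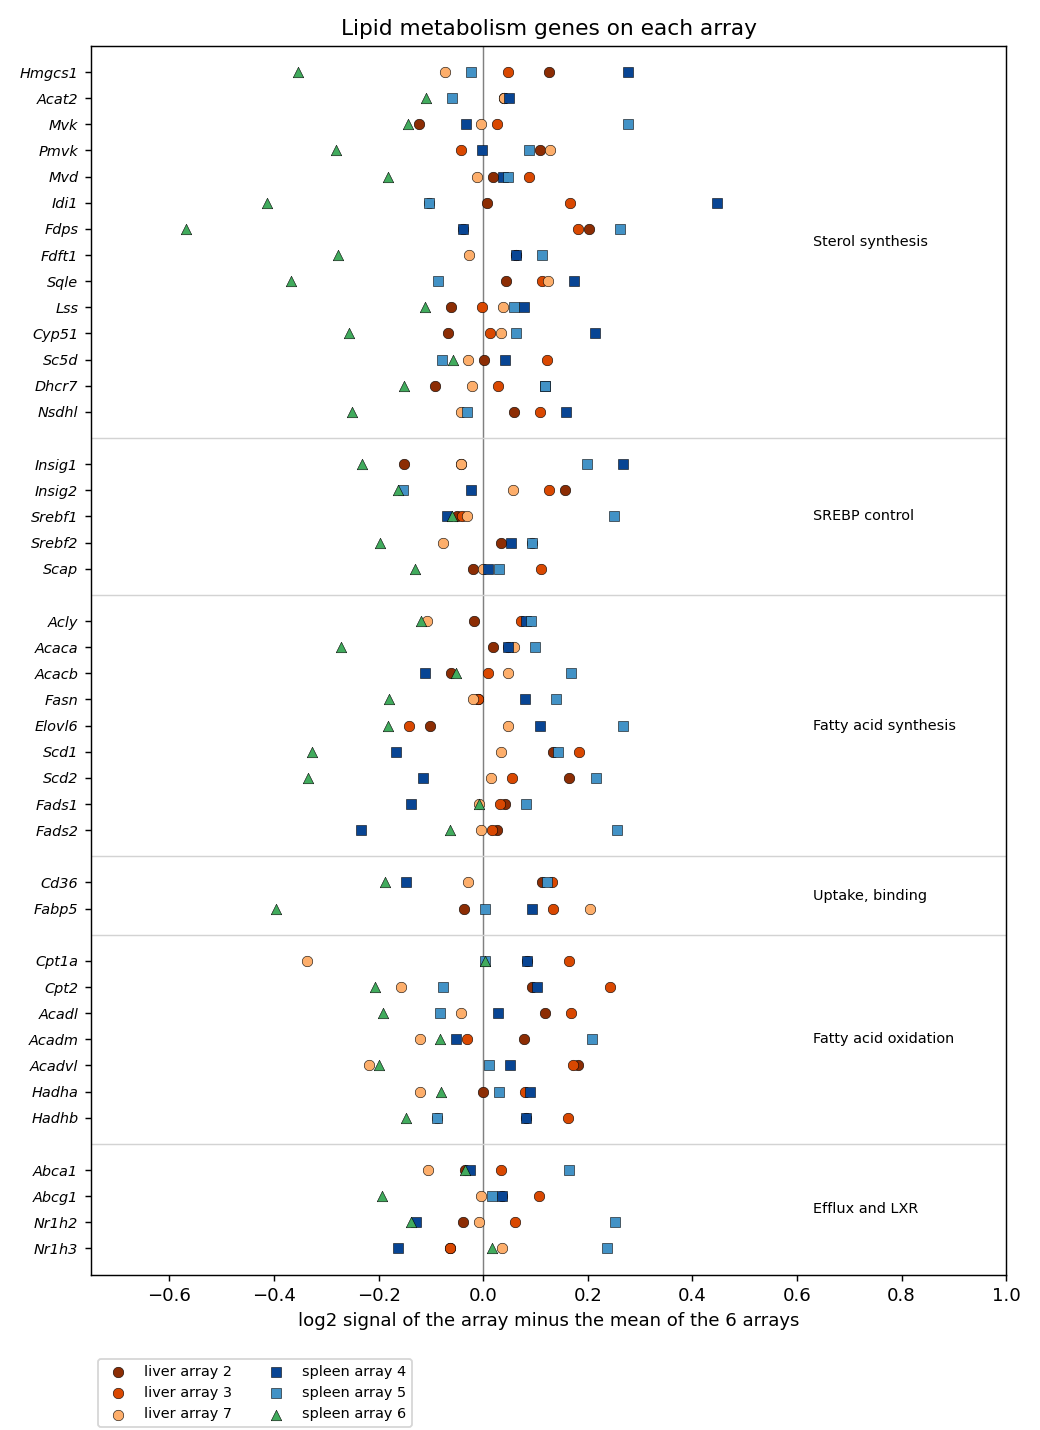
Log2 signal of each of the 41 members minus its mean over the 6 arrays (x axis), grouped by role, with 1 point per array, liver and spleen marked apart. The tissues overlap in all members but Insig2, and spleen array 6 is the lowest point in 30 of 41 members.

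**Figure D2:**
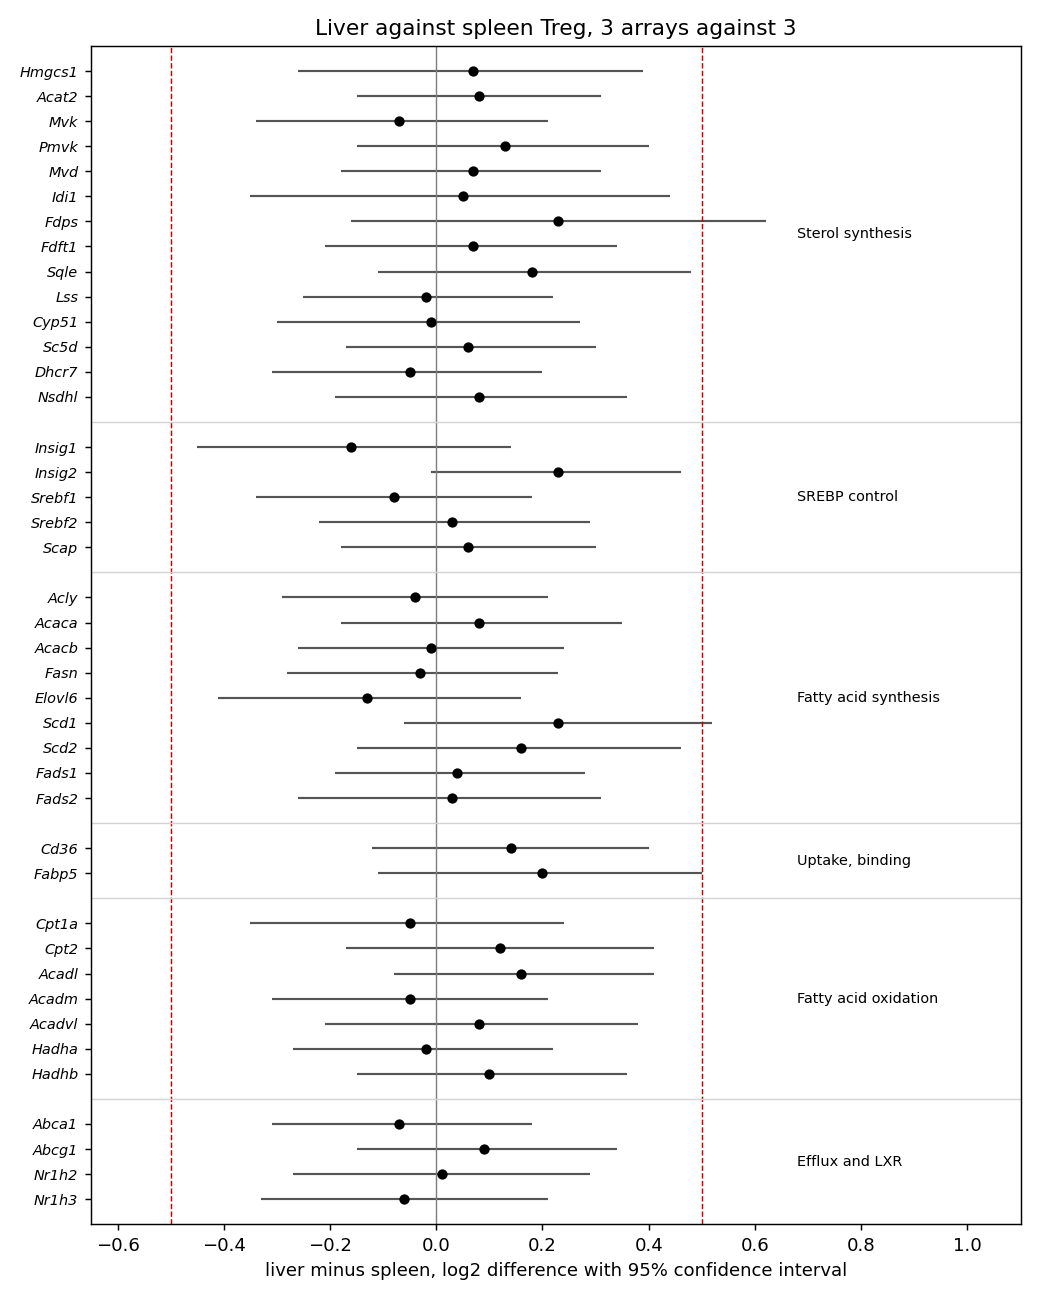
Difference between liver and spleen Treg (liver minus spleen, log2, x axis) of each member with its 95% confidence interval from limma, and dashed lines at 0.5 on either side of 0. All intervals include 0, and 38 of 41 lie within 0.5 of it.

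No sterol synthesis gene was called (0 of 14) and the tissues overlapped in each, with 10 higher and 4 lower in liver and a median difference of 0.07. Hmgcs1, the synthase that makes HMG-CoA, measured 8.52, 8.44 and 8.32 on liver arrays 2, 3 and 7 and 8.67, 8.37 and 8.04 on spleen arrays 4, 5 and 6. The spleen arrays thus held both the highest and the lowest value, and the difference was 0.07 (SE 0.15, 95% confidence interval -0.26 to 0.39). Of the other early enzymes, Acat2, which condenses acetyl-CoA, differed by 0.08. It measured 7.42 on each liver array and 7.43, 7.32 and 7.27 on the spleen arrays. The mevalonate kinase Mvk differed by -0.07, the next kinase Pmvk by 0.13 and the decarboxylase Mvd by 0.07.

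Idi1, the isomerase that supplies the isoprenoid building block, had the widest spread of the spleen arrays among the members, at 7.54, 6.99 and 6.68, against 7.10, 7.26 and 6.99 in liver. The liver values all fell inside the spleen range. Fdps, the synthase of farnesyl diphosphate, stood at 8.61, 8.59 and 8.37 in liver and 8.37, 8.67 and 7.84 in spleen. Its difference of 0.23 (SE 0.18, limma unadjusted p = 0.224) was 0.00 without spleen array 6, which lay well below the other 5 arrays. Sqle, the epoxidase that acts on squalene and is a control point of the pathway, measured 7.90, 7.97 and 7.98 in liver and 8.03, 7.77 and 7.49 in spleen. Spleen array 4 was above all liver arrays and the other spleen arrays below them, and the difference was 0.18 (-0.11 to 0.48), or 0.05 without spleen array 6. Fdft1, which makes squalene, differed by 0.07, and Lss, which cyclises its epoxide to lanosterol, by -0.02. Among the late enzymes, the demethylase Cyp51 differed by -0.01, the sterol dehydrogenase Nsdhl by 0.08, the desaturase Sc5d by 0.06 and the final reductase Dhcr7 by -0.05. The smallest of these differences had no stable sign, which changed in 8 of 16 alternative settings for Lss and in 6 for Cyp51.

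No SREBP control gene was called, and the tissues overlapped in all of them but Insig2 (0 of 5 called, 3 higher and 2 lower in liver, median difference 0.03). Insig2, which retains SCAP in the endoplasmic reticulum, measured 7.43, 7.40 and 7.33 in liver and 7.25, 7.12 and 7.11 in spleen. The groups did not overlap, with liver array 7 and spleen array 4 nearest to each other. The difference was 0.23 (SE 0.11, 95% confidence interval -0.01 to 0.46, 1.17-fold), with limma unadjusted p = 0.0561 and adjusted p = 1. It kept its sign in all 16 alternative settings, as did the differences of other members, Insig1 and Fdps among them. With 1 array left out the Insig2 difference ran from 0.20 to 0.27. Insig1, the relative whose gene is itself a target of SREBP, measured 9.36, 9.47 and 9.47 in liver and 9.78, 9.71 and 9.28 in spleen. Spleen arrays 4 and 5 lay above all liver arrays and spleen array 6 below them. Its difference of -0.16 (SE 0.14, -0.45 to 0.14, limma adjusted p = 1) was -0.31 without spleen array 6. The escort gene Scap differed by 0.06 and Srebf2 by 0.03. Srebf1 measured 7.33, 7.34 and 7.35 in liver and 7.31, 7.63 and 7.32 in spleen, so the difference of -0.08 rested on spleen array 5.

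**Figure D3:**
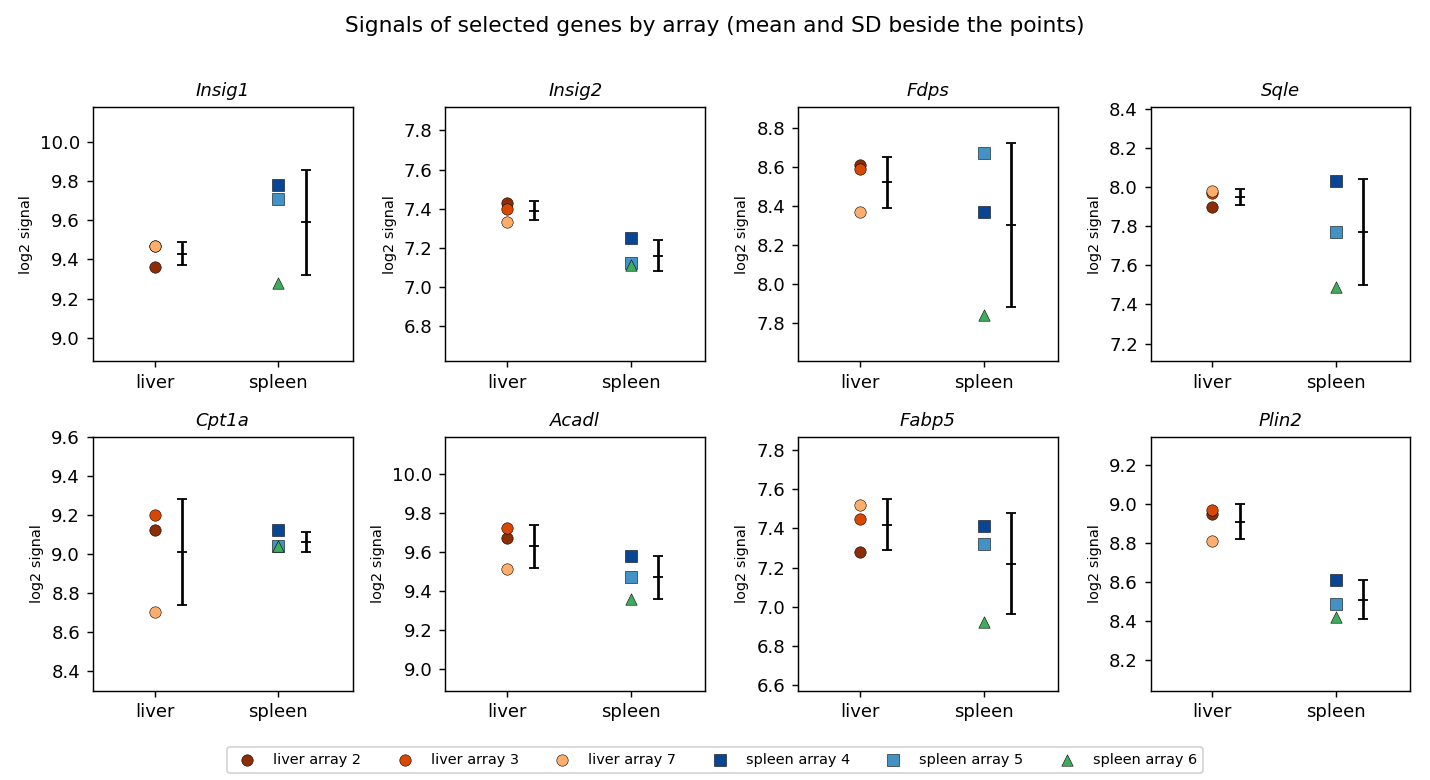
Log2 signal (y axis) of selected members on each of the 6 arrays, and the droplet coat gene Plin2, with points for arrays and, beside them, the mean and SD of each tissue (n = 3). The groups are separate in Insig2 and Plin2 and overlap in the other genes shown.

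The tissues overlapped in every gene of fatty acid synthesis and desaturation (0 of 9 called, 5 higher and 4 lower in liver, median difference 0.03). Acly, which makes cytosolic acetyl-CoA from citrate, differed by -0.04. The acetyl-CoA carboxylase Acaca differed by 0.08 and its mitochondrial relative Acacb by -0.01. Fasn, the fatty acid synthase, measured 7.78, 7.78 and 7.77 in liver and 7.87, 7.93 and 7.61 in spleen, which put the close liver values inside the spleen range (difference -0.03). The elongase Elovl6 differed by -0.13, at 8.33, 8.29 and 8.48 in liver and 8.54, 8.70 and 8.25 in spleen.

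The desaturases that make monounsaturated fatty acids had the larger differences of this group. Scd1 measured 6.01, 6.06 and 5.91 in liver and 5.71, 6.02 and 5.55 in spleen, a difference of 0.23 (SE 0.13, 95% confidence interval -0.06 to 0.52, limma unadjusted p = 0.105). Spleen array 5 lay among the liver arrays and the other spleen arrays below them. A second row of the table for Scd1, with lower signals, gave 0.33. Scd2, the isoform known from brain and lymphoid cells of mice, measured 7.62, 7.51 and 7.47 in liver and 7.34, 7.67 and 7.12 in spleen, a difference of 0.16 (-0.15 to 0.46) that was 0.03 without spleen array 6. Of the desaturases of polyunsaturated fatty acids, Fads1 differed by 0.04 and Fads2 by 0.03. A second, dimmer row of Fads2 gave -0.33, and the mean of the Fads2 rows gave -0.153, so the direction for this gene depends on the row. The second row was near the background rows, at 4.33 on liver array 3, where their mean was 4.34. Its difference is thus limited by signal.

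Genes of fatty acid uptake and binding were 0 of 2 called, with a median difference of 0.17. Fabp5, a cytosolic carrier of fatty acids found in T cells, measured 7.28, 7.45 and 7.52 in liver and 7.41, 7.32 and 6.92 in spleen. Its difference of 0.20 (SE 0.14, -0.11 to 0.50) was 0.05 without spleen array 6. Cd36, a membrane receptor for fatty acids and lipoproteins, measured 3.93, 3.95 and 3.79 in liver and 3.67, 3.94 and 3.63 in spleen. These signals were below the mean of the background rows on all 6 arrays, so the difference of 0.14 does not describe a measured level of the receptor mRNA. Among the rows kept for the 41 members, that of Cd36 was the only one below that mean on any array.

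Fatty acid oxidation genes showed 0 of 7 called, with 4 higher and 3 lower in liver and a median difference of 0.08. Cpt1a, which makes the acyl-carnitines that enter mitochondria and controls the rate of oxidation, measured 9.12, 9.20 and 8.70 in liver and 9.12, 9.04 and 9.04 in spleen. Liver array 7 was the lowest of the 6 and the other liver arrays were at or above the spleen arrays, and the difference was -0.05 (SE 0.14, -0.35 to 0.24). It was 0.10 without liver array 7. Cpt2, which frees the acyl group again inside the mitochondrion, differed by 0.12 (7.17, 7.32 and 6.92 in liver and 7.18, 7.00 and 6.87 in spleen). Of the acyl-CoA dehydrogenases, Acadl, for long chains, differed by 0.16, Acadvl, for very long chains, by 0.08, and Acadm, for medium chains, by -0.05. Acadl measured 9.67, 9.72 and 9.51 in liver and 9.58, 9.47 and 9.36 in spleen, with liver array 7 below spleen array 4. Of the subunits of the trifunctional protein, Hadha differed by -0.02 and Hadhb by 0.10.

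The efflux and LXR genes all differed by less than 0.1 (0 of 4 called, 2 higher and 2 lower in liver, median difference -0.02). The cholesterol exporters differed by -0.07 for Abca1 and 0.09 for Abcg1. The receptors differed by 0.01 for Nr1h2, the LXR form found in most tissues, and by -0.06 for Nr1h3, the form abundant in liver and macrophages. Nr1h2 measured 7.33, 7.43 and 7.36 in liver and 7.24, 7.62 and 7.23 in spleen, with spleen array 5 the highest for both receptors.

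Other genes of the same pathways, from a list made with earlier results of these data known, were compared in the same fit. Of 65 listed genes 63 were found, Tm7sf2 and Acsl3 not being listed under those symbols. None was called, 38 were higher and 25 lower in liver, and their median difference was 0.02. Mylip, a ubiquitin ligase induced by LXR, differed by 0.02. Soat1, which esterifies cholesterol for storage, differed by 0.13.

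Plin2, a coat protein of lipid droplets, had the largest difference of these lists. It measured 8.95, 8.97 and 8.81 in liver and 8.61, 8.49 and 8.42 in spleen, and all liver arrays lay above all spleen arrays. The difference was 0.40 (SE 0.11, 95% confidence interval 0.16 to 0.65, 1.32-fold), with limma unadjusted p = 0.00345 and adjusted p = 0.506 over all genes, so it did not pass. Pltp, a phospholipid transfer protein induced by LXR, was the other gene at an unadjusted p under 0.05 (difference 0.27, limma unadjusted p = 0.0465, adjusted p = 1). Its groups overlapped, with spleen array 5 at 6.90 and liver array 7 at 6.86. The groups did not overlap in 3 genes as higher in liver, Plin2, the lipoprotein receptor Lrp8 (0.13) and the nuclear receptor Pparg (0.21), and in 1 as lower, the coactivator Ppargc1a (-0.13). These counts, of 63 genes, are near the shares of all genes without overlap (3.11% higher and 3.09% lower). Lrp8 and Ppargc1a were named after their values were seen. Ppargc1a was dim, at 4.50, 4.50 and 4.49 in liver and 4.55, 4.79 and 4.54 in spleen. These signals were near the background rows, whose means were 4.09 to 4.55. Its difference was -0.05 without spleen array 5 and is limited by signal. Among the larger differences of the remaining lists were those of Acat1 (0.13) in sterol synthesis, Elovl1 (0.20) and Acsl5 (0.17) in fatty acid elongation and activation, Etfa (0.15) in oxidation and Rxra (0.08), the partner of LXR, in efflux.

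Many members had their lowest signal on the same spleen array. Spleen array 6 was the lowest of the 6 arrays in 30 of 41 members (73.2%), against 23.6% of all genes. By role this held for 13 of 14 sterol synthesis genes, all but Sc5d, for 4 of 5 SREBP control genes, 6 of 9 fatty acid synthesis genes, 3 of 7 oxidation genes and 2 of 4 efflux and LXR genes. The median deviation of the sterol synthesis genes from their mean over the 6 arrays was -0.26 on spleen array 6 and between -0.02 and 0.07 on the other 5. Fatty acid synthesis genes deviated by -0.18 on that array, oxidation genes by -0.15 and all genes by -0.05. After each array's median was subtracted, spleen array 6 was lowest in 25 of 41 members, against 20.9% of all genes, with 12 of 14 sterol synthesis genes and 0 of 7 oxidation genes. Without spleen array 6 the median difference was -0.04 for sterol synthesis, -0.05 for SREBP control, -0.03 for fatty acid synthesis and 0.01 for oxidation. In the same setting it was -0.03 for the 41 members and -0.04 for all genes. The sign of the difference changed in 8 of the 41 members. The standard deviation was larger in spleen than in liver in 35 of 41 members (85.4%), against 70.5% of all genes, and in oxidation genes in 2 of 7.

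Cell cycle genes were also low on spleen array 6. All 14 genes of a cell cycle list were lowest on spleen array 6, where their median deviation was -0.58, against 0.05 and -0.14 on spleen arrays 4 and 5 and 0.19 to 0.31 on the liver arrays. The sterol synthesis genes deviated by 0.07 and 0.05 on spleen arrays 4 and 5, so the lists were low together on array 6 alone. The cell cycle list had a median difference of 0.50 between the tissues, or 0.33 without spleen array 6. Of its 14 genes, 13 were higher in liver without overlap, against 3.11% of all genes. However, 0 of the 14 were called by limma (smallest adjusted p = 0.399). As all 14 were lowest on the same array, the count does not stand for 14 separate observations. The list was not alone in being low on spleen array 6. Other sterol synthesis genes deviated by -0.20 there. The NK and dendritic lists deviated by -0.41 and -0.39 there, and by -0.47 and -0.29 on spleen array 4. The part of the cell cycle list in the levels of the sterol genes was not tested.

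**Figure D4:**
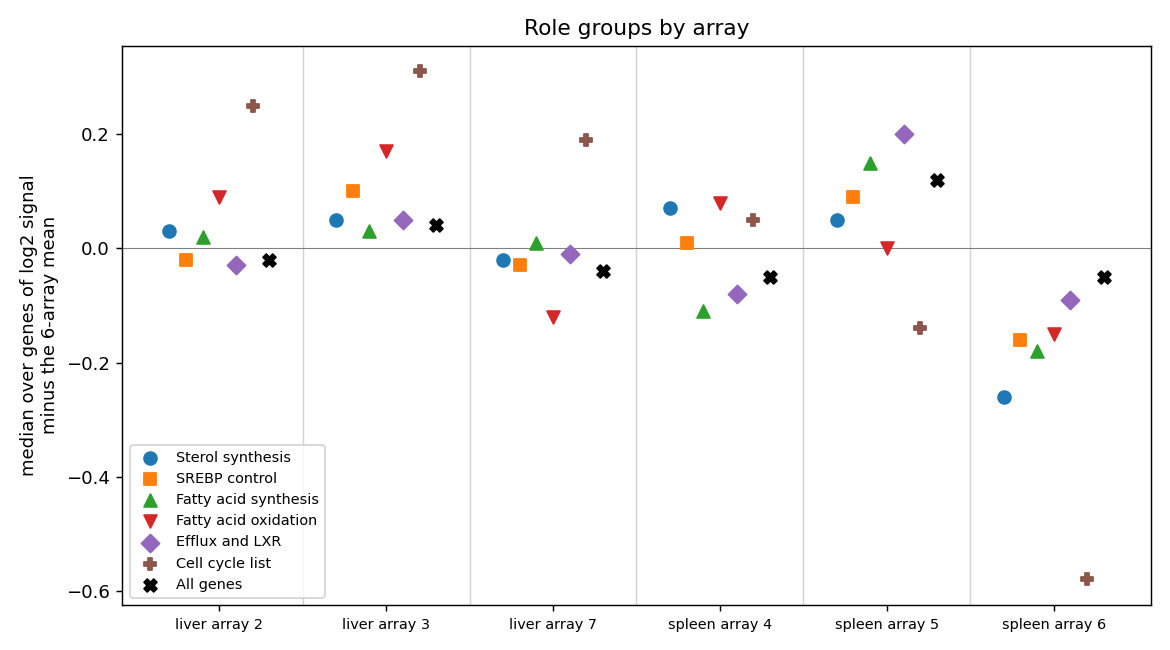
Median over genes of the log2 signal minus the 6-array mean (y axis) for each array (x axis). Shown are the role groups except uptake and binding, the cell cycle list and all 38854 genes. Sterol synthesis genes are at -0.26 on spleen array 6, where the cell cycle list is at -0.58 and all genes are at -0.05.

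In most members the difference between tissues had opposite signs on the sides of the split by Habp2 and Ctse. Between liver arrays 2 and 3 and spleen array 6, 40 of 41 members were higher in liver (median 0.23), against 62.3% of all genes (median 0.06). Between liver array 7 and spleen arrays 4 and 5, 8 of 41 were higher in liver (median -0.08), against 30.4% of all genes (median -0.07). The median of this second comparison was thus near that of all genes. Array medians, which were highest on spleen array 5, were not subtracted here. In 32 of 41 members (78.0%) the sign was positive in the first and negative in the second, as in 49.2% of all genes. Fdps differed by 0.76 and -0.15, Idi1 by 0.50 and -0.27, Hmgcs1 by 0.44 and -0.20 and Cpt1a by 0.13 and -0.38. All 7 oxidation genes were higher in liver in the first and lower in the second. The 8 members that were higher in liver in the second comparison were also higher in the first. They included Insig2, at 0.31 and 0.14, Sqle, at 0.44 and 0.08, and Fabp5, at 0.44 and 0.16. The others were Pmvk, Acat2, Scd1, Fads1 and Acacb. Each of these comparisons rests on a single array for 1 of the tissues, so neither has a replicate check. With the split as a block in limma no member was called.

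**Figure D5:**
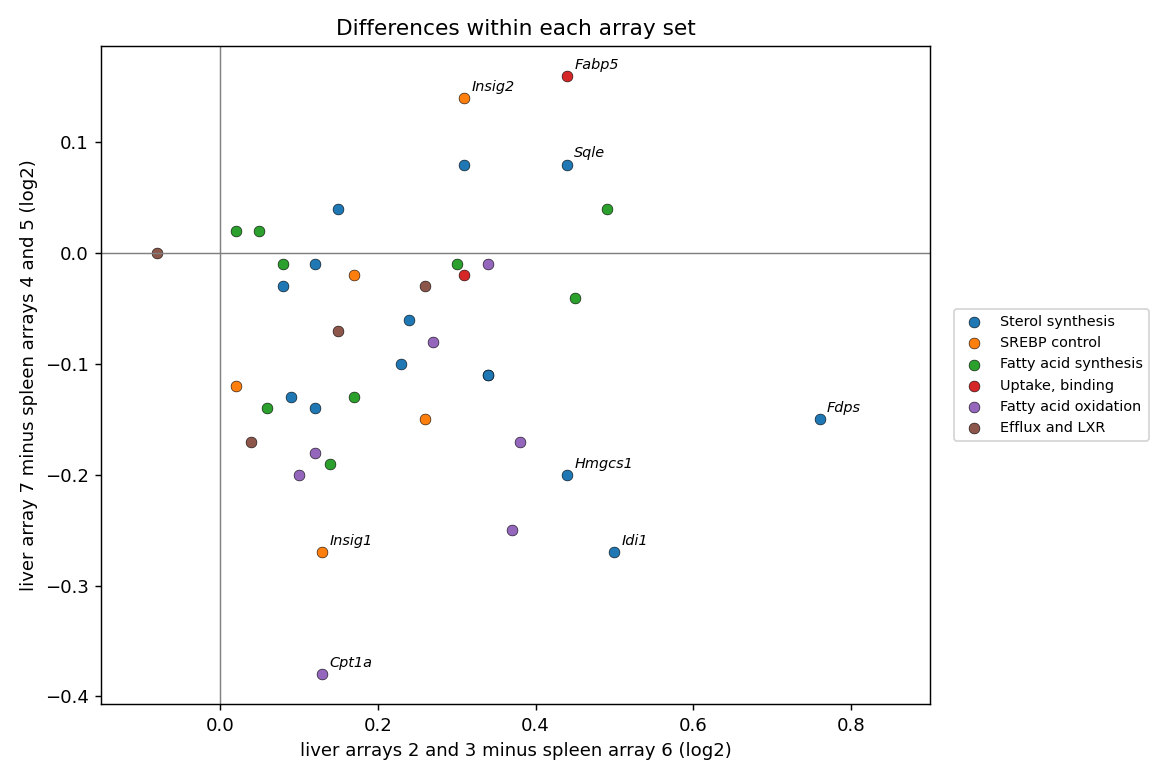
Liver minus spleen difference (log2) of each member between liver arrays 2 and 3 and spleen array 6 (x axis) and between liver array 7 and spleen arrays 4 and 5 (y axis), coloured by role. Most points lie in the lower right part, 32 of 41 being positive on x and negative on y.

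Calls among the members appeared under 1 alternative setting of the fit. When limma estimated a weight for each array, liver array 2 received 9.34 and spleen array 6 received 2.35, with 0.188 to 1.05 for the other 4. The weighted fit called 7 of 41 members as higher in liver and 0 as lower, where 6.12% of all genes were called as higher. These were Fdps (0.62, limma adjusted p = 0.0102), Scd1 (0.41), Scd2 (0.42), Pmvk (0.30), Insig2 (0.29), Acadl (0.27) and Cd36 (0.27), the last below background. The weighted fit leans on the arrays of high weight, which are those compared in the first side of the split.

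Markers of other cells a liver or spleen isolate could hold were summed on the linear scale. The hepatocyte list, of which 10 genes were found, summed to 560 to 594 in liver and 527 to 657 in spleen, and 1 of its members, Alb, did not overlap, at 5.44, 5.55 and 5.22 in liver and 4.83, 5.11 and 4.86 in spleen. Of 15 macrophage genes 14 were found, Adgre1 not being listed under that symbol. They summed to 944 to 1051 in liver and 933 to 1181 in spleen, with 3 members lower in liver without overlap. Of these, Spic was called (difference -0.97, limma adjusted p = 0.0425), with liver signals of 4.23 to 4.48, near the background rows. The NK cell list of 8 genes summed to 797 to 1499 in liver and 473 to 595 in spleen. Of its members 5 were higher without overlap and 1 was called as higher. The dendritic cell list of 10 genes summed to 1426 to 2003 in liver and 1132 to 1331 in spleen, and 8 were higher without overlap. The B cell list of 7 genes summed to 805 to 938 in liver and 727 to 866 in spleen, with 2 higher without overlap. The erythroid list, with 5 of 6 genes found, summed to 317 to 333 in liver and 327 to 400 in spleen. The neutrophil list of 7 genes summed to 346 to 356 and 325 to 383, and each of these lists had 1 lower without overlap. The endothelial list of 6 genes, with 0 without overlap, summed to 697 to 817 in liver and 788 to 886 in spleen. Most of these sums came from Pecam1, with means of 9.11 in liver and 9.30 in spleen. The other genes of the list had tissue means of 4.80 to 5.59. Over all genes the share without overlap was 3.11% as higher and 3.09% as lower, and 0.0206% were called. Within liver, array 7 had the lowest sum of both the NK and the dendritic list, and it also had the lowest signal of the 6 arrays in 4 of 7 oxidation genes (Cpt1a, Acadm, Acadvl and Hadha), in 4 of 6 Treg identity genes, Foxp3 included, and in 21.7% of all genes. After median subtraction these were 3 of 7, 1 of 6 and 20.2%. The part of these cells in the values of the members, and in that of Plin2, was not tested.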

How the data were processed

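RNA was measured on 6 arrays, grouped by the tissue in the labels. The deposited values are log2 signals per transcript cluster from RMA, which compresses differences of dim genes. Per the submitters' processing notes the tool was Affymetrix Expression Console. The array is named Gene ST 2.0 in the protocol and MTA-1_0 in the column headers. The build behind the symbols is not given in the sources used here. Control rows (6732 of 72688) and rows with no symbol or several (26355 and 87) were left out. Where a symbol had several rows (526 symbols), the brightest by mean was kept, leaving 38854 genes.

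Tissues were compared by limma (version 3.58.1, R version 4.3.3, two-sided lmFit and eBayes without covariates), Benjamini-Hochberg adjusted over all genes at a threshold of 0.05, after a check on simulated data. An exact permutation test of 3 against 3 arrays cannot go below p = 0.1. All members were described. From other lists, Soat1, Mylip, Foxp3 and Il2ra were named in any case, with the 2 largest differences per pathway list and at most 3 cell type genes. Some genes that this rule names are not reported here. Members, lists and this rule were chosen with earlier results of these data known. Alternatives were filters on dim genes, rescaling, averaged rows, an intensity trend, array weights, the array split as a block, liver arrays 2 and 3 averaged and each array left out.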

Additional observations from a re-analysis of the deposited data

How the results depend on the processing

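No member was called by limma in 15 of the 16 alternatives, and 7 were called with array weights. Over all genes limma called 8, and it called 18 when the dimmer 50% of genes were left out, 21 when genes under log2 5 were, 23 with an intensity trend, 78 with the array split as a block and 3533 with array weights. It called 0 after median subtraction, quantile normalization and cyclic loess, where an unadjusted p under 0.05 was found for 1448, 2391 and 2429 genes. With 1 array left out it called 0 to 33, the 0 being without spleen array 5 (2017 at an unadjusted p under 0.05). Members whose groups did not overlap numbered 1, and 2, 4 and 5 after median subtraction, quantile normalization and cyclic loess, or 2 to 8 with 1 array left out, which leaves fewer arrays to overlap. The SREBP control median ran from -0.0543 to 0.0888 with 1 array left out, the lowest without spleen array 6. Over all genes the median ran from -0.05 to 0.05 in these settings. Under the alternatives 638 values of single members moved by less than the spread between arrays, 7 moved by more and 7 were called. Signs changed in at most 9 of 41 members in any setting, all with main differences no larger than 0.13. No rescaling moved the median of all genes by over 0.1. No paired analysis was possible because the tissues share no replicate numbers. Differences near the background, as for Cd36 and Ppargc1a, are limited by signal.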
